A study of Mus musculus with 16 samples.

Results

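A set of 10 sarcomere scaffold genes, of 34650 gene names on the array, was followed in mouse calf muscle: the giant filament genes Ttn and Neb, the Z-disc genes Actn2, Actn3, Ldb3, Myoz1, Myot and Tcap, and the thick-filament genes Mybpc1 and Mybpc2. All probes with one of these gene names in the array files were taken, which gave 18 probes of the 55681 probe names on the array. Each probe is named here by its gene and by the position of its first base on the transcript that the array design lists for it, as in Ttn 33226. Of the 18 probes, 17 were bright enough to be tested, among 20285 tested probes in all. The 1 left out, Actn2 1240, was well above background on 5 of 16 arrays.

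RNA came from the gastrocnemius, the large calf muscle, of male C57BL6 littermates aged 8 to 16 weeks. Wild-type mice (WT, Eif6+/+) were compared with mice that lack 1 of the copies of Eif6 in every cell of the body (Het, Eif6+/-), 3 mice of each genotype. Eif6 encodes a factor that binds the large ribosomal subunit and keeps it from joining the small subunit. Per the series' design text each mouse gave all kinds of RNA, and arrays of a genotype with the same number in their names were taken as 1 mouse. The arrays hold total RNA of the whole muscle and RNA of polysomes, which carry several ribosomes on a transcript and were pooled from the heavy part of a sucrose gradient, for all 6 mice, while the monosome fraction, transcripts with a lone ribosome, was profiled from WT mice 1 and 2 and Het mice 1 and 3. That made 6 groups and 16 arrays of 1 colour. Whole muscle is a mixture of cells, and fewer cells of a type and less RNA per cell cannot be told apart in it.

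Titin is the largest known protein and spans from the Z-disc to the middle of the sarcomere, where it acts as a spring and a ruler. Nebulin runs along the thin filament and is anchored at the Z-disc. Z-discs are the planes in which thin filaments of neighbouring sarcomeres are crosslinked by alpha-actinin, and many small adaptor proteins bind there. Myosin-binding protein C lies on the thick filament, with separate genes for slow and fast fibres. Transcripts of very different length encode these proteins, since those of titin and nebulin are among the longest in the genome and that of telethonin (Tcap) is short.

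The probes of titin, nebulin and the 2 alpha-actinins are printed because results below differ along a transcript or between near relatives. All are 60 bases long, read 5′ to 3′ along the transcript, and lie on the minus strand at the mm9 coordinates that the array design gives. Each has at least 1 reading frame with no stop codon.

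Ttn 2094, chr2:76802542-76802601: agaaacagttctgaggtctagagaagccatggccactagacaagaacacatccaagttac
Ttn 33226, chr2:76655847-76655906: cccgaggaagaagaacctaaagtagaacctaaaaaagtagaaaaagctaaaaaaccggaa
Ttn 93881, chr2:76551742-76551801: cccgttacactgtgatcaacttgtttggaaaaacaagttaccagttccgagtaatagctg
Neb 10763, chr2:52097549-52097608: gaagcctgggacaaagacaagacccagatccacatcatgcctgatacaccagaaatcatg
Neb 840, chr2:52077301-52077360: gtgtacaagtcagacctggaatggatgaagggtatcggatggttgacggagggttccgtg
Neb 21759, chr2:51992837-51992896: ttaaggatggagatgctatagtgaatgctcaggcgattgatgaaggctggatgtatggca
Actn2 2515, chr13:12364990-12367362: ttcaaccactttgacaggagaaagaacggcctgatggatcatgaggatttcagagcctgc
Actn3 2397, chr19:4861727-4862212: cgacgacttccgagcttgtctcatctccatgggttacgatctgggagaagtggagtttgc

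The lines are in the order of transcription within each gene. Ttn 2094 and Neb 840 carry the numbering of other transcript models than the other probes of their genes, and Neb 840 lies between the other two nebulin probes. Another titin probe, Ttn 101578, is the most downstream, at chr2:76542077-76542136. The alpha-actinin probes cross an exon junction, since their coordinates span 2373 and 486 bases of genome. Aligned end to end, they are alike at 32 of 65 columns, and their longest identical run is 6 bases, against at most 9 between any other member probes. The end of the Actn2 probe resembles the start of the Actn3 probe, so they cover offset stretches. The 32 columns are thus not a measure of how alike the genes are.

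The arrays differed in brightness and in how transcripts were covered. The 75th percentile of the processed signal ran from 12.7 to 150, and it was 42.3 to 150 on the WT whole-muscle arrays and 13.5 to 33.0 on the Het ones. WT polysome 2 and WT monosome 2 stood apart from the other 14 arrays. Over 1202 transcripts with probes at least 500 bases apart, the median upstream minus downstream difference was 0.58 and 0.76 on these 2 arrays and between −1.35 and −0.79 on the others. Eif6 itself was lower in Het whole muscle by 0.93 (SE 0.29) and 1.07 (SE 0.37) at its 2 probes, with no overlap between genotypes and an exact permutation p of 0.1, the smallest that 3 against 3 mice allow. The adjusted p were 0.61 and 0.71 (limma with Benjamini-Hochberg adjustment), and 8.3% of all tested probes were likewise lower in every Het whole-muscle array. All 8 fast-fibre markers were well above background on every array, and the heart markers Nppa and Tnni3 were above it on no array.

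**Figure D1:**
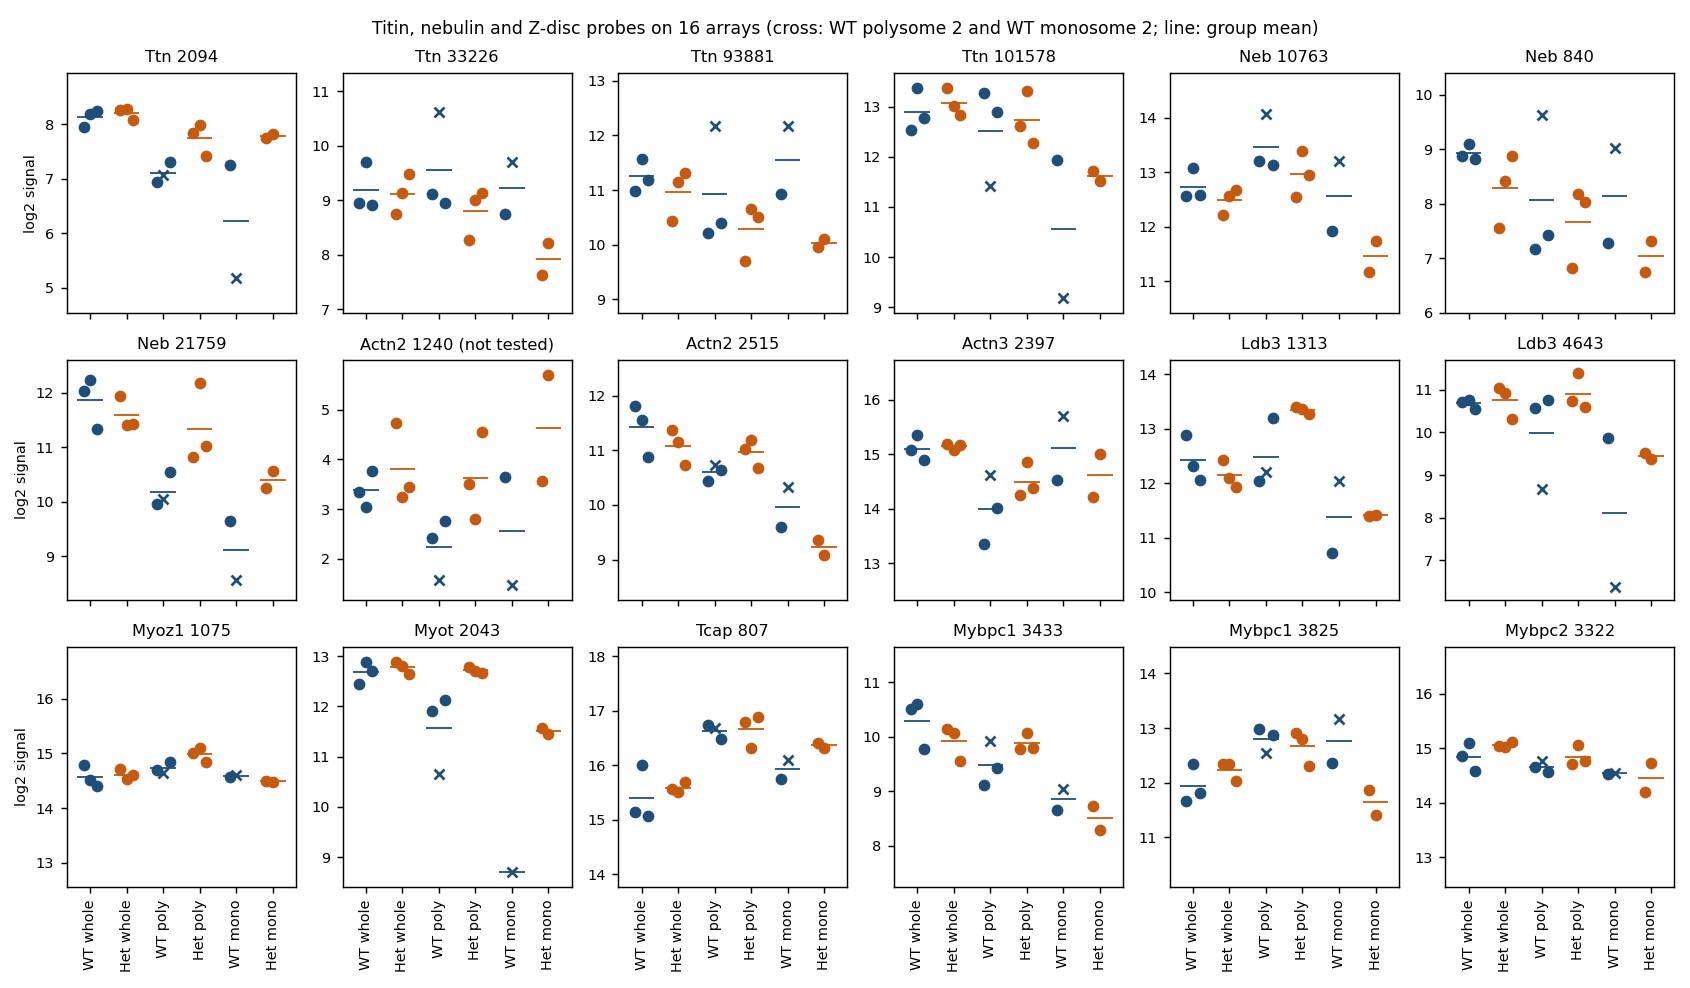
Quantile-normalized log2 signal (y axis) of the 18 probes on each array, by genotype and RNA kind (x axis; blue WT, orange Het, short lines group means, crosses the arrays WT polysome 2 and WT monosome 2). Tcap rises from whole muscle to polysomes in both genotypes, whereas the titin and nebulin panels differ from probe to probe; Myot has no value on WT monosome 1.

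The first question was which scaffold transcripts were over- or under-represented on polysomes. Tcap, which encodes telethonin, a small cap protein on the titin ends at the Z-disc, was enriched in both genotypes. Its log2 signal was 15.15, 16.00 and 15.07 in WT whole muscle and 16.74, 16.69 and 16.48 in WT polysomes, and 15.56, 15.52 and 15.70 against 16.79, 16.32 and 16.88 in Het mice 1 to 3. All 6 polysome arrays were above all 6 whole-muscle arrays. The polysome minus whole muscle difference was 1.23 in WT (SE 0.25, adjusted p = 0.020, limma with Benjamini-Hochberg adjustment) and 1.07 in Het (SE 0.25, adjusted p = 0.048), which are 2.35-fold and 2.10-fold. The arrays lay on 2 slides, and no mouse had its whole-muscle and polysome arrays on the same slide. A value within 1 slide therefore compares different mice, with 1 array in some groups (WT whole muscle and Het polysome on slide 1, WT polysome and Het whole muscle on slide 2), and slide 1 holds WT polysome 2. With slide as a term both differences stayed at these values, with adjusted p of 0.044 in WT and 0.093 in Het (limma), and within slide 1 and slide 2 alone they were 1.65 and 0.90 in WT and 1.19 and 1.04 in Het. The Het call was lost when any Het mouse, or WT mouse 1 or 3, was left out.

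In WT muscle 4 of the 17 member probes passed an adjusted p of 0.05, where 20.4% of all tested probes did (10% higher and 10.3% lower). Tcap rose, and Actn3 2397, Ttn 2094 and Neb 21759 fell. The study's threshold, a log2 difference over 1 with an unadjusted p under 0.05, was passed by these and Myot (−1.12), 5 of 17 where 20.1% of all tested probes passed, 8.41% higher and 11.7% lower. In Het muscle Tcap alone passed, 1 of 17 where 7.37% of all probes did (3.34% higher and 4.03% lower), and 2 passed the study's threshold, where 13.3% did (7.42% higher and 5.9% lower). The median over the 17 probes was −0.37 in WT and −0.12 in Het, beside 0.05 and 0.12 over all tested probes. Without the pairing of both arrays of a mouse, 2 probes passed the adjusted threshold in WT and 0 in Het (limma).

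Actn3 encodes the alpha-actinin of fast fibres. Its polysome minus whole muscle difference was −1.72, −0.73 and −0.89 in WT mice 1 to 3 and −0.94, −0.23 and −0.79 in Het mice. All 6 mice were below 0, and the ranges of the genotypes overlapped. The mean was −1.11 in WT (SE 0.27, adjusted p = 0.031 by limma), 2.16-fold, and −0.65 in Het (SE 0.27, adjusted p = 0.17). With slide as a term the WT difference was −1.05 and the call was lost (adjusted p = 0.061 by limma), as it was without WT mouse 1 or 3 or Het mouse 1 or 3. Actn2, the alpha-actinin of all muscle fibres, was also lower on WT polysomes in each mouse (−1.39, −0.83 and −0.23) but missed the threshold (adjusted p = 0.067 by limma). In Het mice its differences were −0.35, 0.05 and −0.05, on both sides of 0.

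Myoz1, calsarcin-2 of fast fibres, had differences of −0.09, 0.14 and 0.43 in WT and 0.30, 0.57 and 0.25 in Het. It did not pass in either genotype, with 95% intervals of −0.33 to 0.65 and −0.12 to 0.87. Ldb3 encodes cypher, or ZASP, a PDZ and LIM protein of the Z-disc. The array design places its 2 probes on different transcripts. At Ldb3 1313 the differences were −0.85, −0.11 and 1.13 in WT and 0.97, 1.27 and 1.35 in Het. The Het mice were all above 0 and the WT mice lay on both sides. The Het mean of 1.19 (SE 0.36) passed the study's threshold but not the adjusted one (adjusted p = 0.086 by limma), and a term for array brightness took it to 0.12. At Ldb3 4643 the means were −0.69 in WT and 0.15 in Het.

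The fast and slow forms of myosin-binding protein C did not pass in either genotype. Mybpc2, the fast form, had a mean of −0.18 in WT (95% interval −0.66 to 0.30) and −0.21 in Het (−0.69 to 0.27). The 2 probes of Mybpc1, the slow form, which the array design lists on different transcripts, moved in opposite ways. Mybpc1 3433 had differences of −1.40, −0.69 and −0.35 in WT mice, and the downstream probe Mybpc1 3825 had 1.31, 0.20 and 1.05 in the same mice. Their adjusted p were 0.068 and 0.057 by limma, so neither passed. The summed log2 level of 7 slow-fibre markers was 12.95 to 14.76 in WT whole muscle and 14.10 to 15.57 on WT polysomes, which overlapped, and 13.75 to 14.23 and 14.48 to 15.18 in Het, which did not. Its part in these differences was not tested. Fat markers were also higher on polysomes, with a summed level of 5 markers (Lep was not above background) of 13.03 to 14.43 in WT and 13.78 to 13.92 in Het against 11.78 to 12.74 and 11.88 to 12.87 in whole muscle, and their part was not tested either. In WT the summed level of 6 fibroblast and tendon markers was 13.68 to 14.15 on polysomes against 12.96 to 13.60 in whole muscle, and that of 4 markers of any muscle fibre was 16.54 to 17.34 against 17.64 to 18.34. The 8 fast-fibre markers were higher on WT polysomes (20.11 to 20.19 against 19.86 to 20.05), the other way from Actn3. The part of these lists in the polysome minus whole muscle differences was not tested.

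**Figure D2:**
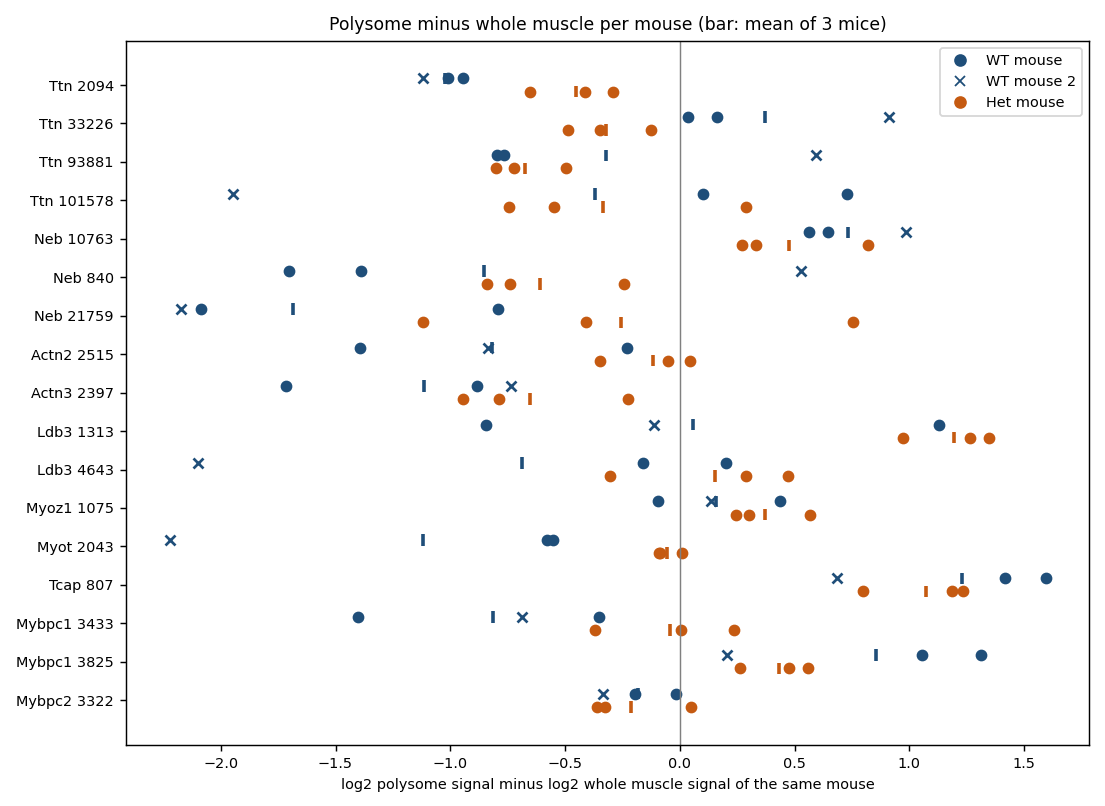
Polysome minus whole muscle log2 difference of each mouse (x axis) for the 17 tested probes (y axis; blue WT, orange Het, cross WT mouse 2, bars means of 3 mice). Tcap lies above 0 and Actn3 below 0 in all 6 mice; for Ttn 101578, Ldb3 4643 and Myot the cross lies far to the left of the other WT mice.

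The probes of titin disagreed on the same arrays, and so did those of nebulin. The most upstream titin probe, Ttn 2094, was lower on polysomes in all 6 mice, by −1.01, −1.12 and −0.94 in WT and −0.41, −0.29 and −0.65 in Het. The WT mean was −1.02 (SE 0.20, adjusted p = 0.018 by limma), or 2.03-fold, and the Het mean −0.45 (SE 0.20, adjusted p = 0.18). The 3 WT values agreed closely, WT mouse 2 included. Ttn 33226 was not lower in WT (0.16, 0.91 and 0.04) and was −0.49, −0.12 and −0.35 in Het. Ttn 93881 was −0.77, 0.60 and −0.80 in WT and −0.72, −0.50 and −0.80 in Het. At Ttn 101578 the WT values were 0.73, −1.94 and 0.10 and the Het values −0.74, 0.29 and −0.55. At the last 2 probes WT mouse 2 had the opposite sign to the other WT mice.

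In nebulin, Neb 10763 was higher on polysomes in all 6 mice (0.65, 0.99 and 0.56 in WT, and 0.33, 0.82 and 0.27 in Het), with a WT mean of 0.73 that just missed the adjusted threshold (adjusted p = 0.054 by limma). Neb 21759, the most downstream probe, was lower in all 3 WT mice by −2.09, −2.17 and −0.79. The WT mean was −1.68 (SE 0.41, adjusted p = 0.032 by limma), or 3.21-fold. In Het mice Neb 21759 was −1.12, 0.75 and −0.41, with a mean of −0.26. Neb 840, between them, was −1.70, 0.53 and −1.39 in WT and −0.74, −0.24 and −0.84 in Het, lower in 5 of 6 mice.

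Differences between probes of a gene on the same array set the 2 unusual arrays apart. Ttn 93881 minus Ttn 101578 had values of 0.74 for WT polysome 2 and 3.0 for WT monosome 2, and between −3.04 and −1.01 on the other 14 arrays. For Ttn 33226 minus Ttn 101578 the values were −0.80 and 0.52 against −4.62 to −3.16. Neb 840 minus Neb 21759 was −0.43 and 0.45 against −4.38 to −2.38. Ldb3 1313 minus Ldb3 4643 was 3.54 and 5.67 against 0.85 to 2.67. In all 4 pairs both arrays lay beyond the range of the other 14, with less signal at the downstream probe relative to the upstream one. Ttn 2094 minus Ttn 101578 and the Mybpc1 pair did not set both arrays apart.

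**Figure D3:**
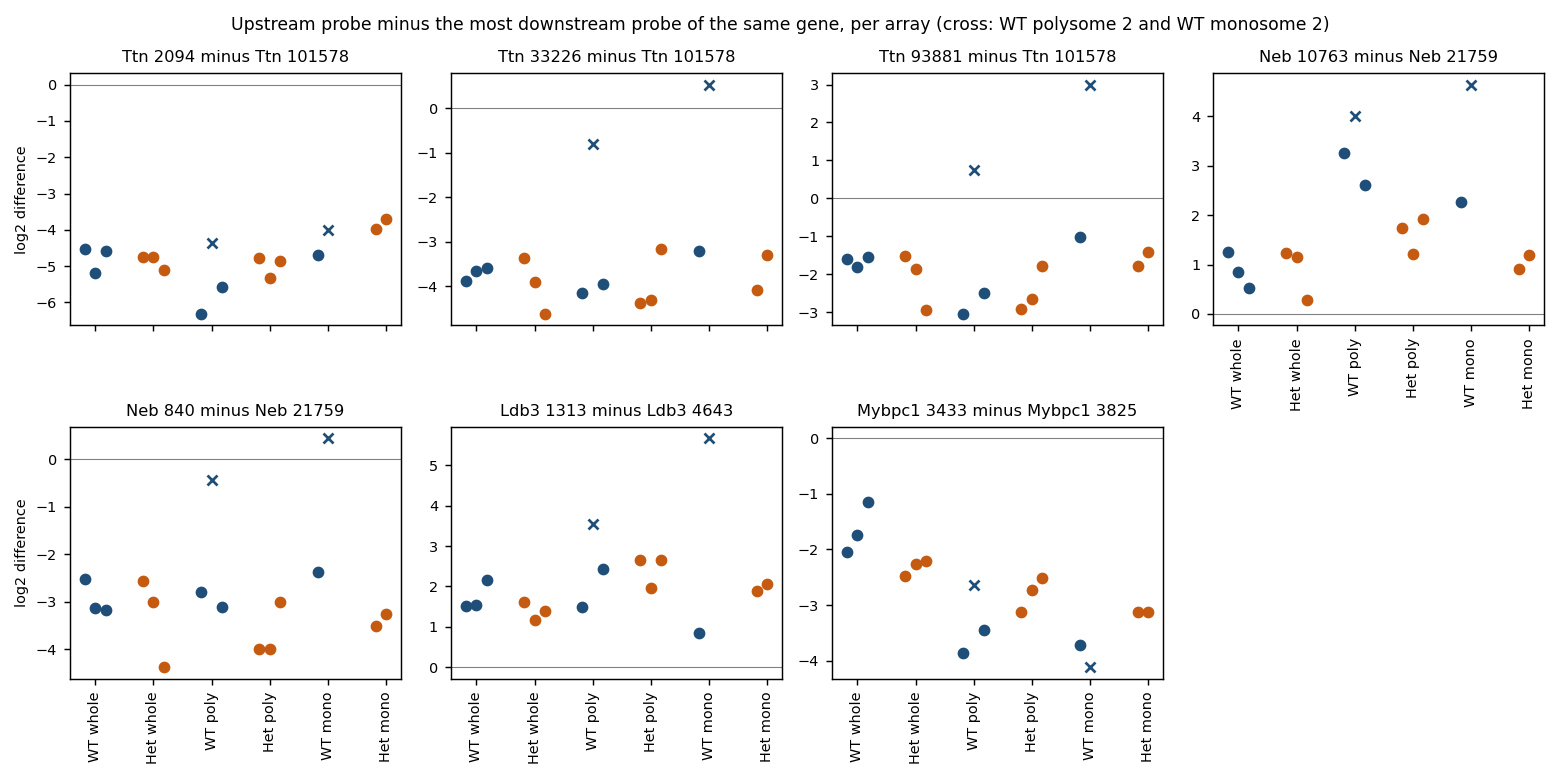
Log2 signal of an upstream probe minus that of the most downstream tested probe of the same gene (y axis), on each of 16 arrays by group (x axis; blue WT, orange Het, crosses WT polysome 2 and WT monosome 2). The crosses lie above all other points for 5 of the 7 pairs; for Neb 10763 minus Neb 21759 the other WT polysome arrays are also above the whole-muscle arrays.

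Nebulin differed between whole muscle and polysomes apart from those arrays as well. Neb 10763 minus Neb 21759 was 0.53, 0.85 and 1.24 in WT whole muscle and 3.26, 4.01 and 2.60 in WT polysomes for mice 1 to 3. In Het it was 0.29, 1.15 and 1.24 in whole muscle and 1.74, 1.22 and 1.92 in polysomes. In WT mice 1 and 3, whose arrays were covered like the rest, the downstream end of nebulin was thus low on polysomes relative to Neb 10763. No test was run on this difference between probes.

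The adjusted count on WT polysomes depended on which mice entered. Without WT mouse 2, whose polysome array stood apart, it was 6 in place of 4, and Ttn 2094, Neb 21759, Actn3 and Tcap had differences of −0.98, −1.44, −1.30 and 1.5, of which Neb 21759 no longer passed. Without WT mouse 1, or without WT mouse 3, no member probe passed, and without Het mouse 3, which enters through the shared spread, 2 passed. Over all tested probes the count was 3395 without WT mouse 2, 1516 without WT mouse 1, 754 without WT mouse 3 and 2321 without Het mouse 3, against 4128 with all mice. With the brightness of the arrays as a term none passed.

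The second question was whether the genotypes differed. In whole muscle none of the 17 probes passed the adjusted threshold or the study's threshold (limma; 0% and 4.59% of all tested probes), and none had an unadjusted p under 0.05. None had genotypes without overlap, where 5.3% of all probes were higher and 8.3% lower in every Het array. The differences, Het minus WT, ran from −0.65 at Neb 840 to 0.30 at Mybpc1 3825, with 9 probes higher and 8 lower and a median of 0.04 (all probes −0.03). The narrowest interval was that of Myoz1, at −0.39 to 0.49, and the widest that of Ldb3 4643, at −1.47 to 1.63. The methods' t-test gave no adjusted call either.

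On polysomes no member passed the adjusted threshold by limma or by the methods' t-test (0% of all probes in both), and 3 had an unadjusted p under 0.05 by limma. Myot and Neb 21759 passed the study's threshold as higher in Het, where 3.45% of all tested probes passed it (2.19% higher and 1.26% lower). With the p of the methods' t-test no member passed the study's threshold, where 415 of 20266 probes did. Myot encodes myotilin, an actin- and filamin-binding protein of the Z-disc. Its log2 signal was 11.90, 10.65 and 12.13 on WT polysomes and 12.79, 12.71 and 12.66 on Het polysomes, so that all Het values were higher. In whole muscle it was 12.45, 12.87 and 12.71 in WT and 12.88, 12.80 and 12.65 in Het, and these overlapped. The polysome difference was 1.16 (SE 0.34, 95% interval 0.43 to 1.89, adjusted p = 0.57 by limma, exact permutation p = 0.1). The lowest WT value is that of WT polysome 2, and without WT mouse 2 the difference was 0.71, below the study's threshold.

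Neb 21759 was 9.95, 10.06 and 10.54 on WT polysomes and 10.81, 12.17 and 11.03 on Het polysomes, again without overlap. The difference was 1.15 (SE 0.40, adjusted p = 0.61 by limma) and 1.09 without WT mouse 2, but 0.74 without Het mouse 2, below the study's threshold. Without Het mouse 2, or without WT mouse 2, 1 member probe passed the study's threshold, and with brightness as a term none did. At Neb 10763 the difference had the other sign (−0.51, SE 0.38). Ldb3 1313, at 12.05, 12.21 and 13.19 in WT and 13.40, 13.36 and 13.27 in Het, was the third with an unadjusted p under 0.05 (0.86, SE 0.38, adjusted p = 0.65 by limma). Within slide 1 it was 1.27 and within slide 2 it was 0.13.

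In all, 5 probes of 5 genes were higher in every Het polysome array than in every WT one, against 12.9% of all tested probes, and none was lower in every Het array, against 8.73%. They were Ttn 2094, Neb 21759, Ldb3 1313, Myot and, by the order of unrounded values alone, Myoz1. For Ttn 2094 the values were 6.95, 7.06 and 7.30 against 7.85, 7.99 and 7.42, and for Myoz1 they were 14.69, 14.65 and 14.84 against 15.02, 15.10 and 14.84. Myoz1 differed by 0.26 (SE 0.20), and its highest WT and lowest Het values were equal at the digits given, so 4 probes were set apart by a visible gap.

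Markers of other tissue parts moved with genotype on the same polysome arrays. The summed level of 4 markers of any muscle fibre, of which Des and Acta1 also stand in the list of scaffold genes below, was 17.44 to 17.69 in Het and 16.54 to 17.34 in WT. That of the fibroblast and tendon markers was 12.97 to 13.65 against 13.68 to 14.15. Neither pair of ranges overlapped, and their part in the polysome differences was not tested.

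Polysome loading was taken as the polysome minus whole muscle difference of each mouse and compared between genotypes. No member passed the adjusted threshold (limma; 0% of all tested probes, adjusted p of 0.28 or more), nor by the methods' t-test, and 1 had an unadjusted p under 0.05 by limma. Neb 21759 had the largest difference, 1.43 (SE 0.59, 95% interval 0.05 to 2.80, unadjusted p = 0.044), and was the only member past the study's threshold, which 13.9% of all tested probes passed. Its WT and Het mice overlapped, since WT mouse 3 (−0.79) lay above Het mouse 1 (−1.12), and the exact permutation p was 0.2. With the brightness of the arrays as a term, which in loading went with genotype, its sign turned, to −0.68, and with slide as a term it was 0.99. Without WT mouse 1 or 2, or Het mouse 2 or 3, it no longer passed the study's threshold, and without WT mouse 3 there were 3 member probes past it.

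Ttn 2094 and Myot had every Het loading value above every WT one, with differences of 0.57 (SE 0.28) and 1.06 (SE 0.49), where 13.4% of all tested probes did. Ttn 33226 had every Het value below every WT one (−0.69, SE 0.34), where 11.9% did. The Ttn 33226 difference was −0.42 without WT mouse 2. It was −1.99 on slide 1 and 0.70 on slide 2, each from different mice with 1 array in 2 of the 4 groups, and −0.65 in a fit with a slide term. For all 3 probes the exact permutation p was 0.1, the smallest possible. Titin was thus on both sides of 0, with the other 2 probes at −0.35 (SE 0.44) and 0.04 (SE 0.70). For Myot the WT mean of −1.12 contained −2.22 from mouse 2, and without that mouse the difference was 0.51.

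For the remaining genes the genotypes overlapped in loading. Ldb3 1313 differed by 1.14 (SE 0.51) and Ldb3 4643 by 0.84 (SE 0.62), the latter falling to 0.13 without WT mouse 2. Mybpc1 3433 differed by 0.77 (SE 0.37), Actn2 2515 by 0.70 (SE 0.37) and Actn3 by 0.46 (SE 0.38). Tcap, enriched on polysomes in both genotypes, differed by −0.16 (95% interval −0.98 to 0.67). The median over the 17 probes was 0.25, with 11 above 0 and 6 below, and that of all tested probes was 0.16. The Het whole-muscle arrays were the dimmer ones, and with brightness as a term the members' median was −0.30. The polysome array was brighter than the whole-muscle array in every Het mouse, but among WT mice in mouse 3 alone. In loading the brightness term and genotype thus could not be well told apart, and fits with that term do not settle the direction.

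**Figure D4:**
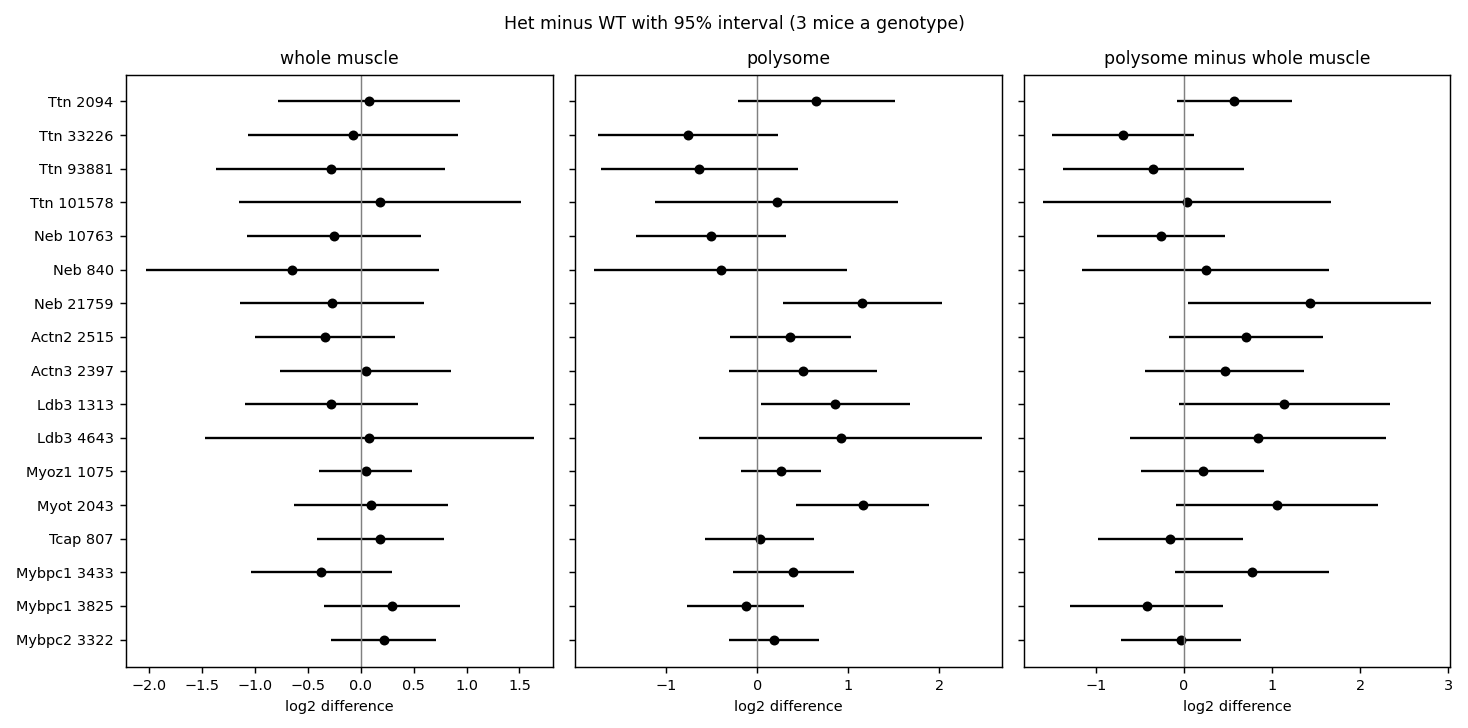
Het minus WT log2 difference (x axes) in whole muscle, on polysomes and in polysome minus whole muscle, for the 17 tested probes (y axis; points are differences and bars 95% intervals from limma, 3 mice a genotype). Only Neb 21759 lies off 0 with its whole interval in the right panel, and no probe does in the left one.

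The third question was how the scaffold transcripts were distributed between the monosome and the other RNA, averaged over both genotypes. Relative to whole muscle, 8 of 17 probes fell in monosomes and 1, Tcap, rose (adjusted p under 0.05 by limma; 24.9% of all tested probes passed, 14.1% lower and 10.8% higher). The median over the member probes was −0.89 and over all tested probes −0.09. Relative to monosomes, 8 probes were higher on polysomes and none lower (26% of all tested probes passed, 16.9% higher and 9.08% lower), with a median of 0.61 beside 0.20. The study's threshold was passed by 7 probes against whole muscle (25.3% of all tested probes) and by 6 between polysomes and monosomes (24.4%). Against whole muscle the adjusted count was 4 without Het mouse 1, Het mouse 3 or WT mouse 3 and 5 without Het mouse 2, where that over all tested probes fell from 5049 to 440, 1136, 2024 and 2083. Between polysomes and monosomes it was 1 without Het mouse 1, 3 without Het mouse 3 and 5 without Het mouse 2 or WT mouse 3, where all tested probes fell from 5274 to 965, 1826, 3399 and 3132. The calls were thus lost over the whole array and not among the members alone.

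Fibre markers moved too. The summed level of the 8 fast-fibre markers was 19.39 to 19.48 in WT and 19.81 to 19.87 in Het monosomes, against 19.86 to 20.05 and 19.89 to 20.06 in whole muscle. That of the 4 markers of any muscle fibre was 16.17 to 17.07 and 16.52 to 16.85 against 17.64 to 18.34 and 17.32 to 17.47. Both were lower in monosomes without overlap within either genotype. In WT the fibroblast and tendon markers (14.06 to 14.20 against 12.96 to 13.60) and 3 endothelium markers (12.31 to 13.96 against 11.33 to 11.96) were higher in monosomes than in whole muscle. The part of these lists in the monosome differences was not tested.

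Actn2 2515 had values of 11.82, 11.57 and 10.88 in WT and 11.38, 11.15 and 10.73 in Het whole muscle, and of 9.60 and 10.32 in WT and 9.37 and 9.09 in Het monosomes. All 4 monosome arrays were below all 6 whole-muscle arrays. The monosome minus whole muscle difference was −1.66 (SE 0.24, adjusted p = 0.0010 by limma), and polysomes exceeded monosomes by 1.19 (SE 0.24, adjusted p = 0.0045). Mybpc1 3433 behaved alike, at −1.42 (SE 0.24) and 1.0 (SE 0.24). Actn3 did not pass in either comparison, with −0.26 (95% interval −0.90 to 0.38) against whole muscle and −0.62 (−1.26 to 0.02) for polysomes against monosomes.

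Neb 21759 fell in monosomes by 1.97 on the log2 scale (SE 0.32, adjusted p = 0.0017 by limma). Its monosome values were 9.66 and 8.57 in WT and 10.26 and 10.56 in Het, against 11.33 to 12.23 in whole muscle of either genotype. Without WT mouse 2 the difference was −1.61. Neb 10763 was higher on polysomes than on monosomes by 1.21 (SE 0.30, adjusted p = 0.012), and by 1.38 without that mouse. Titin passed at its ends only. Against whole muscle, Ttn 2094 was at −1.16 (SE 0.32) and Ttn 101578 at −1.89 (SE 0.49) in monosomes, with adjusted p of 0.023 and 0.019 by limma. Without WT mouse 2, whose monosome array was not well above background at Ttn 2094, they were −0.63 and −1.09. The middle probes Ttn 33226 and Ttn 93881 did not pass, at −0.58 (95% interval −1.36 to 0.20) and −0.32 (−1.17 to 0.54).

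Both Ldb3 probes were higher on polysomes than on monosomes, Ldb3 1313 by 1.52 (SE 0.30) and Ldb3 4643 by 1.67 (SE 0.57). Without WT mouse 2 these were 1.92 and 1.13. Ldb3 1313 was 10.72 and 12.04 in WT monosomes and 11.40 and 11.42 in Het monosomes, against 12.05, 12.21 and 13.19 on WT and 13.40, 13.36 and 13.27 on Het polysomes. WT monosome 2 was level with WT polysome 1, and the Het arrays were apart. Myot, whose spot on WT monosome 1 was marked as an outlier and dropped, was 8.71 on WT monosome 2 and 11.57 and 11.44 in Het monosomes. Its fitted difference of −2.62 (SE 0.30) from whole muscle used WT monosome 2 as the lone WT value. The Het arrays by themselves had monosome values more than 1 log2 unit below every Het whole-muscle and polysome value.

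Tcap was 15.74 and 16.11 in WT monosomes and 16.42 and 16.32 in Het monosomes, in the midst of its whole-muscle and polysome values. It exceeded whole muscle by 0.65 (SE 0.22, adjusted p = 0.048 by limma), 0.71 without WT mouse 2, and lay 0.50 (SE 0.22, adjusted p = 0.10) under polysomes. The call against whole muscle was kept in 6 of 17 alternatives, and was lost with slide as a term (0.65, adjusted p = 0.054 by limma), with brightness as a term (0.54) and with 75th percentile scaling (0.14). Myoz1 stayed between 14.48 and 14.60 on all 4 monosome arrays, and its difference from whole muscle was −0.06 (95% interval −0.40 to 0.29). Mybpc2 differed by −0.45 (SE 0.18, adjusted p = 0.080 by limma).

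**Figure D5:**
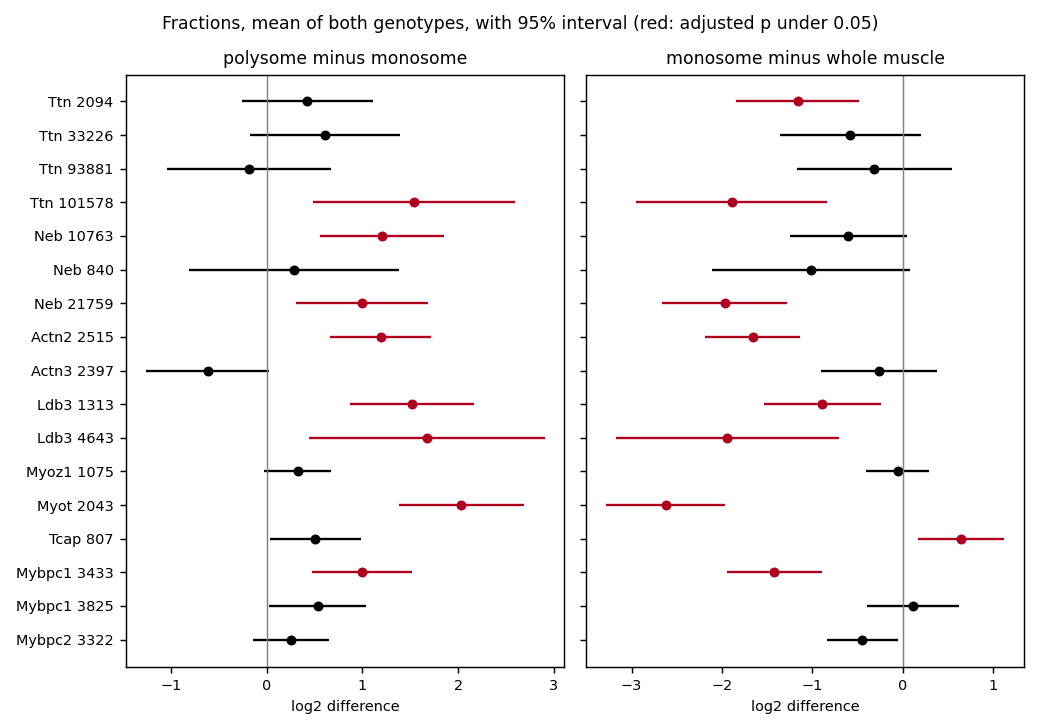
Log2 difference between fractions (x axes), averaged over both genotypes, for the 17 tested probes (y axis; points are differences and bars 95% intervals from limma; red marks an adjusted p under 0.05). The 8 red points of the left panel lie above 0, and of the 9 red points in the right panel Tcap alone lies above 0.

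Between genotypes, the monosome groups held 2 mice each and could not reach an exact p under 0.33. The study's threshold was passed by 7 of 17 member probes (28.6% of all tested probes) and the adjusted one by 1 (0.503%), but without WT mouse 2 none passed either and without WT mouse 1 there were 12 and 10. The counts over all tested probes moved too, from 5802 and 102 to 1742 and 33 without WT mouse 2 and to 11327 and 10802 without WT mouse 1. Without overlap, 4 probes were higher and 6 lower in Het (26.8% and 23.7% of all tested probes). The adjusted call was Myot, which has only WT monosome 2 in its WT group. Ttn 33226 (8.74 and 9.70 in WT against 7.64 and 8.21 in Het) and Mybpc1 3825 (12.36 and 13.17 against 11.86 and 11.41) were lower in both Het mice than in both WT mice. Without WT mouse 2 they differed by −0.82 and −0.73. Titin and nebulin went both ways past the study's threshold. Ttn 2094 (1.57) and Neb 21759 (1.3) were higher in Het, and Ttn 33226 (−1.30), Ttn 93881 (−1.53) and Neb 10763 (−1.10) were lower. The differences at Ttn 2094, Neb 21759, Ttn 93881 and Neb 10763 were 0.53, 0.75, −0.91 and −0.46 when WT mouse 2 was left out.

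Several marker lists also lay apart between the monosome genotypes. Fast-fibre markers were 19.39 to 19.48 in WT and 19.81 to 19.87 in Het. Fibroblast and tendon markers were 14.06 to 14.20 against 12.93 to 13.74, with Tnmd above background on no monosome array. The 4 immune markers on the array, of 5 listed, were 10.005 to 10.67 against 8.93 to 9.20, with Ptprc and Lyz2 not above background in Het. The fat markers were 12.02 to 12.70 against 11.93 to 11.96. Their part in the monosome differences was not tested.

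The other genes of the sarcomere scaffold were taken from a list of 47, of which 45 were tested at their brightest probe. In loading 7 of 45 passed the study's threshold as higher in Het and none as lower, where 6.58% and 7.34% of all tested probes did, and none passed the adjusted threshold (limma). The median over the 45 genes was 0.54, beside 0.25 for the member probes. Every Het value lay above every WT value for 14 and below for 1, where 13.4% and 11.9% of all tested probes did. The 5 with the largest loading differences past the study's threshold were Ankrd1 (2.60, SE 0.75), Ankrd23 (1.98, SE 0.53), Tmod1 (1.74, SE 0.47), Des (1.52, SE 0.58) and Pdlim5 (1.28, SE 0.51). Ankrd1 and Ankrd23 encode ankyrin-repeat proteins that bind titin, Tmod1 caps thin-filament pointed ends, Des is the intermediate filament desmin around Z-discs and Pdlim5 is a PDZ and LIM protein related to Ldb3.

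Their values in the mice were of unequal weight. Ankrd23 loading was −3.13, −3.07 and −1.58 in WT and −1.02, 0.11 and −0.92 in Het, and Tmod1 loading was −2.50, −1.54 and −1.13 against −0.66, 0.42 and 0.28. For Des it was −3.53, −1.38 and −1.60 against −0.70, −0.39 and −0.85. All 3 genes lay without overlap. Ankrd1 was well above background on 2 of 3 WT polysome arrays and 1 of 3 Het whole-muscle arrays, so its difference of 2.60 rests partly on background. Without WT mouse 1 the loading difference was 0.85 for Des and 0.75 for Pdlim5. In a fit with a brightness term, which went with genotype in loading, 0 of the 45 genes passed the study's threshold (7 as reported), and Ankrd23 was at 0.09.

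On polysomes 3 of the 45 genes passed the study's threshold as higher in Het and 1 as lower (2.19% and 1.26% of all tested probes). In every Het array 12 were higher and 3 lower (12.9% and 8.73%). The named genes were Ankrd23 (Het minus WT 1.60, SE 0.33), Flnc (−1.16, SE 0.39) and Tmod1 (1.06, SE 0.31), each without overlap and none past the adjusted threshold (adjusted p 0.51 to 0.58 by limma). Flnc encodes filamin C, a partner of myotilin at the Z-disc. In whole muscle the median over the 45 genes was −0.29 (all probes −0.03), with 0 higher and 11 lower in every Het array, where 5.3% and 8.3% of all tested probes were. The markers of any muscle fibre were lower there too, at 17.32 to 17.47 in Het and 17.64 to 18.34 in WT, and their part was not tested. There 3 passed the study's threshold, all lower (2.94% of all probes were lower), and they were Xirp1 (−1.49, SE 0.56), Actn1 (−1.43, SE 0.62) and Synpo2 (−1.36, SE 0.58), with Actn1, the non-muscle alpha-actinin, well above background on 1 of 3 Het arrays. Without WT mouse 1 Xirp1 was at −0.74 and Actn1 at −0.92, and without Het mouse 3 Actn1 was at −0.72. In monosomes 2 of the 45 genes passed the study's threshold as higher in Het and 5 as lower (17.1% and 11.5% of all tested probes). Without overlap 10 were higher and 13 lower (26.8% and 23.7%). The named genes were Xirp2 (3.13, SE 1.02, well above background on 1 of 2 WT arrays), Klhl40 (−2.28, SE 0.54) and Fhl1 (−2.14, SE 0.70), where WT monosome 2 was again one of the 2 WT arrays. Xirp2 was at 0.82 and Fhl1 at −1.05 without WT mouse 2, and they were at 5.43 and −3.23 without WT mouse 1.

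On WT polysomes against whole muscle 8 fell and 3 rose (adjusted p under 0.05 by limma, 10.3% and 10% of all tested probes), led by Xirp2 (−2.75), Ankrd23 (−2.59) and Des (−2.17). Without WT mouse 1, 4 fell and 1 rose, and without WT mouse 3, 3 fell and none rose. The calls over all tested probes went from 4128 to 1516 and 754. By the methods' t-test none of the 45 genes and none of all tested probes passed. In Het none passed (7.37%), the largest being Xirp2 (−1.49), Trim55 (1.37) and Pdlim5 (1.31). In monosomes against whole muscle 21 of 45 fell and none rose (14.1% and 10.8% of all tested probes). Without Het mouse 2 or WT mouse 3, neither of which has a monosome array, 14 fell, and the calls over all tested probes went from 5049 to 2083 and 2024. Tmod1 was at −1.89, the ubiquitin ligase Trim54 at −1.86 and Lmod2 at −1.77, the last not well above background on either WT monosome array. On polysomes against monosomes 17 rose and none fell (16.9% and 9.08%), 11 and 1 by the study's threshold (14.7% and 9.71% of all tested probes). Past the adjusted threshold 12 rose without Het mouse 2 or WT mouse 3, and with brightness as a term 3 rose and 1 fell. The calls over all tested probes went from 5274 to 3399, 3132 and 2039. Pdlim5 was at 1.56 and Pdlim3 at 1.51, and Xirp2 at −1.62 passed the study's threshold only. Without WT mouse 1 Trim54 was at −1.02 and the Xirp2 difference at −0.56, and without WT mouse 2 the latter was −2.61.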

How the data were processed

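The deposited scanner files hold spot intensities, which the authors made with Agilent Feature Extraction 11.0.1.1; the processed signal used here is background-subtracted and detrended and is not scaled between arrays. The 0 or 1 flags of the scanner software mark spots that are outliers or well above background. The authors' deposited table holds log2 values, quantile-normalized, and served as an alternative. Here log2 processed signals of 16 arrays were quantile-normalized together, outlier spots were dropped, and the tested probes were those that the scanner software marked as well above background throughout 1 or more of the 6 groups. A fit drops an array on which the spot was an outlier (Myot on WT monosome 1).

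Differences were fitted with limma 3.58.1 in R 4.3.3 and adjusted by Benjamini-Hochberg over all 20285 tested probes. Loading and the within-genotype polysome differences used 1 ratio per mouse, since the series' design text says that each mouse gave all kinds of RNA; the number in the sample names was taken as the mouse, and deviations of its arrays correlated at 0.05 to 0.48. The other comparisons used a fit of 6 groups. Where a listed gene had several tested probes, the one with the highest mean log2 signal stood for it. Genes named were all members, Eif6, and of the 47 listed scaffold genes the 5 with the largest difference past the study's threshold in loading and 3 in each other comparison. The members and lists were chosen with earlier results of these data known. The number of arrays limits the precision. The 16 arrays lay on 2 slides of 8. The methods' t-test was run on the same values. The scripts were tested on simulated data. The result of 1 marker list is not reported here.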

Additional observations from a re-analysis of the deposited data

Results flagged for a closer look

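At Ttn 33226 the polysome minus whole muscle difference was above 0 in all 3 WT mice (0.16, 0.91 and 0.04) and below 0 in all 3 Het mice (−0.49, −0.12 and −0.35). Het minus WT was −0.69 (−0.42 without WT mouse 2, and, from different mice with 1 array in 2 of the 4 groups, −1.99 within slide 1 and 0.70 within slide 2), and the opposite signs were noted without a test of their own; limma on the loading ratios gave an adjusted p of 0.36. At Mybpc1 3825 the monosome minus whole muscle difference was 0.70 and 0.82 in WT mice 1 and 2 and −0.48 and −0.62 in Het mice 1 and 3. The genotypes differed by −1.31 there, which was not tested, and 1 of the 2 WT values comes from WT monosome 2. Groups of 2 or 3 arrays were too small for a check of single arrays against their group.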

How the results depend on the processing

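The members' differences, medians and counts were recomputed under other scalings, background correction, filters, slide and brightness terms and without each mouse (not the differences between probes), as were, by a choice made after seeing the data, those of the listed scaffold genes. The median difference over the member probes was 0.25 in loading, and became 0.46 in the authors' table and −0.30 with array brightness as a term. At Neb 21759 loading turned from 1.43 to −0.68 with that term, which in loading went with genotype. In Het polysome minus whole muscle the median moved from −0.12 to −0.47 with brightness and −0.41 with 75th percentile scaling. That scaling gave −0.73 in WT polysome minus whole muscle (from −0.37), 0.80 in polysome minus monosome (from 0.61) and −1.21 in monosome minus whole muscle (from −0.89). The authors' table gave 0.84 in polysome minus monosome, where the median of all probes was 0.06 in place of 0.20. Probes well above background on all 16 arrays gave −0.60 in monosome minus whole muscle and −0.34 in monosomes between genotypes (from −0.09), and slide 2 alone −0.37 and −0.62. The cause of these moves was not tested.

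Leaving out 1 mouse at a time, the median ranged from 0.12 to 0.36 in loading, from −0.062 to 0.10 in whole muscle, from 0.20 to 0.44 in polysomes and from −0.53 to −0.094 in monosomes between genotypes, from −0.59 to −0.11 in WT and −0.20 to −0.0020 in Het polysome minus whole muscle, from 0.59 to 0.95 in polysome minus monosome and from −0.98 to −0.45 in monosome minus whole muscle.

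The adjusted count of member probes was 0 under all alternatives in loading, whole muscle and polysomes between genotypes. It ran from 0 to 9 (4 as reported) in WT and 0 to 2 (1) in Het polysome minus whole muscle, 0 to 10 (1) in monosomes between genotypes, 0 to 10 (8) in polysome minus monosome and 0 to 12 (9) in monosome minus whole muscle. Over all tested probes these 5 counts ran from 0 to 5228 (4128), 3131 (1494), 10802 (102), 9386 (5274) and 10576 (5049). By the study's threshold it ran from 0 to 3 (1) in loading, 0 to 2 (0) in whole muscle, 0 to 3 (2) in polysomes and 0 to 12 (7) in monosomes, and over all tested probes from 365 to 3928 (2823), 39 to 2083 (931), 178 to 1947 (699) and 408 to 11327 (5802). In loading, 440 of all tested probes passed the adjusted threshold in the authors' table, 371 with normexp correction and 655 of 9135 with probes well above background on all 16 arrays, and none as reported. For the 45 scaffold genes the loading median ran from 0.16 (brightness) to 0.68 (0.54 as reported), with 0 to 12 higher past the study's threshold (7) and none lower, and 0 to 2 past the adjusted one (0).

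Without the replicate block that ties both arrays of a mouse, the medians were 0.25 in loading, −0.37 in WT and −0.12 in Het, the adjusted counts fell to 2 in WT and 0 in Het, and 2 probes passed the study's threshold in loading. With a replicate block the medians were 0.04 in whole muscle, 0.26 in polysomes, −0.05 in monosomes, 0.76 in polysome minus monosome and −0.84 in monosome minus whole muscle, and the adjusted call in monosomes was lost. Replicate numbers name different mice in the 2 genotypes, and arrays of the same number correlated at −0.32 to 0.45 across genotypes.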
